A study of Mus musculus with 8 samples.

Results

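The day 5 transcriptomes of 2 PRC2-null mouse embryonic stem cell (ESC) lines, Suz12delta and Eednull, were compared with each other to ask which lineages differed between them after the same directed differentiation. The genes compared were those at 1 FPKM or more in either library and above 0 in both, which gave 15691 of the 36808 genes in the table (42.6%). FPKM scales the fragments that map to a gene by its transcript length and by the size of the library. Each line had 1 library, so no difference has a replicate check and no test was possible. Ratios are given as log2 of the Suz12delta value over the Eednull value, each with 0.1 FPKM added, which understates the difference of genes with low values.

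The 2 lines differ in more than the mutated gene. Suz12delta cells carry a truncation of SUZ12 on a C57/BL6 background, and Eednull cells carry a point mutation in Eed on a BALB/cR1 background. Genotype, strain and cell line therefore cannot be told apart in any difference between them. Each line is 1 line, grown as ESCs on irradiated mouse embryonic fibroblasts that were removed by a brief plating. The ESC libraries of both lines at day 0, and day 5 libraries of E14 wild-type and Suz12GT cells, both on a 129/Ola background, give values for context. E14 ESCs and ESCs of CJ7, a further wild-type line on a 129/S background, complete the 8 libraries. Suz12GT is a gene trap line that fuses SUZ12 to beta-galactosidase and keeps part of the histone mark. All day 5 cells had gone through spinal motor neuron (SMN) differentiation, by removal of LIF and addition of retinoic acid and a hedgehog agonist.

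PRC2 is the Polycomb complex that trimethylates lysine 27 of histone H3, and SUZ12, EED and EZH1 or EZH2 form its core. The mark sits at the promoters of many developmental regulators in ESCs and is associated with their repression. In SMN differentiation, retinoic acid gives the cells a spinal identity and hedgehog signaling gives them a ventral one, so that Olig2 progenitors arise and then motor neurons that express Isl1, Mnx1 and Lhx3.

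After 5 days the 2 PRC2-null lines resembled each other more than any other pair of libraries, and named groups of genes separated them in each direction. Suz12delta cells had the higher values for most cleavage stage genes and all Xlr genes compared, for part of the pluripotency, germline, endothelial, smooth muscle and fibrillar collagen genes, and for genes in stretches of chromosomes 6 and X. Eednull cells had the higher values for hemoglobin genes, for the maternally expressed imprinted RNAs Meg3 and Rian, for Y-linked genes and for genes at the end of chromosome 3. Keratins, endoderm transcription factors, lateral mesoderm factors, retinoic acid response genes, Wnt pathway genes and posterior Hox genes had few or no genes at 2-fold between the lines.

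The median log2 ratio over the 15691 genes was 0.15, with quartiles of -0.06 and 0.38. At least 2-fold higher values were found in Suz12delta for 744 genes (4.74%) and in Eednull for 216 genes (1.38%), while 14731 genes (93.9%) differed by less than 2-fold. The counts at 4-fold were 157 and 33. Of the 960 genes at 2-fold or more, 633 were under 5 FPKM in both libraries. Of the 2-fold differences, 77.5% were higher in Suz12delta. When both libraries were scaled to the same 75th percentile, a shift of -0.16 on the log2 scale, the counts were 531 and 305 and that share was 63.5%, so list medians below are read against 0.15. The rule left out 197 genes listed at 0 in 1 of the libraries and at 1 FPKM or more in the other, 113 of them at 0 in Eednull and 84 in Suz12delta. Near the limit of 2-fold, Strap was just inside (69.7 FPKM in Suz12delta and 34.7 FPKM in Eednull) and Itpr1 just outside (12.9 and 6.41 FPKM). Near the limit of 1 FPKM, SCARNA17 was just outside at 0.999 FPKM in Suz12delta and 0.171 FPKM in Eednull, and Unc13d just inside with a ratio of 1.12.

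**Figure D1:**
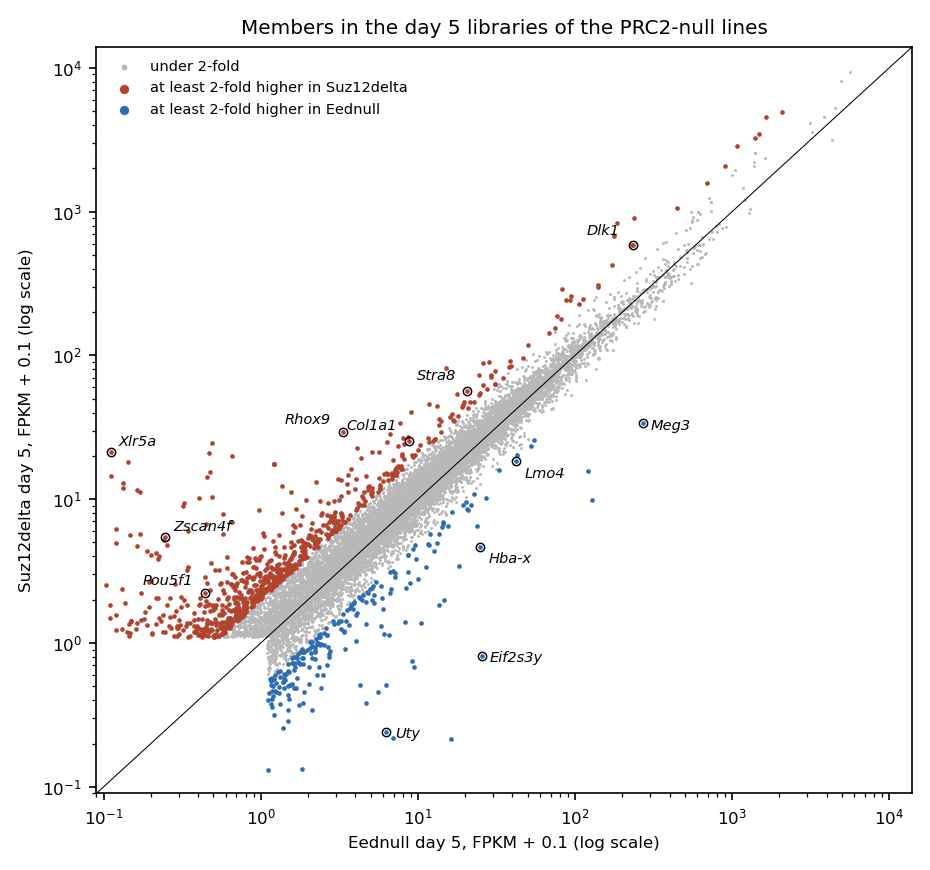
FPKM + 0.1 of each of the 15691 genes in Eednull (x axis) and Suz12delta (y axis) day 5 cells, both on log scales, with 1 library per axis. Red points (744) are at least 2-fold higher in Suz12delta, blue points (216) at least 2-fold higher in Eednull, grey points differ by less, the line marks equal values, and most colored points lie at low FPKM.

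By the same measure, 6.12% of genes differed by 2-fold or more between the 2 PRC2-null lines at day 5, the smallest share among the 28 pairs of libraries. It was 12.6% between E14 and Suz12GT at day 5, 26.9% between Suz12delta and E14 at day 5, 24.9% between Eednull and E14 at day 5, and 26.2% between Suz12delta and Eednull as ESCs. FPKM values summed to 460746 in Suz12delta and 403007 in Eednull, within the range of 389165 to 797748 over all 8 libraries. The files hold no read counts, so depth is unknown. Differences were more frequent among short RNAs, whose FPKM values are uncertain, since 34.9% of 169 snoRNA genes and 38.3% of 47 miRNA genes differed by 2-fold or more, against 5.09% of 12944 protein-coding genes.

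The mutated genes and the labelled cell type were checked first. Suz12 was at 11.6 FPKM in Suz12delta and 17.6 FPKM in Eednull at day 5, and at 6.21 and 35.7 FPKM in their ESCs. Eed, the gene with the point mutation in Eednull cells, was at 15.9 and 11.5 FPKM at day 5. Transcript levels do not show whether either protein is made. Markers of the labelled cell type were high in E14 cells and low in both mutants. Olig2, the progenitor factor, was at 22.1 FPKM in E14 and at 0.107 FPKM in Suz12delta and 0.0455 FPKM in Eednull. Stmn2, a neuronal microtubule regulator, was at 101 FPKM in E14, 4.92 FPKM in Suz12delta and 4.59 FPKM in Eednull. Tubb3 was listed at 0 in every library, E14 included, and was not used.

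Genes were grouped in 44 lists of lineage markers and pathways, which held 730 genes in the table and 513 of the genes compared. Of these 513, 75 (14.6%) were at least 2-fold higher in Suz12delta and 18 (3.51%) in Eednull, against 4.74% and 1.38% of all genes compared. The lists were chosen with earlier results of these data known, so these shares are not a result about lineage genes. In 34 lists the median lay within 0.5 of the median over all genes, in 8 it was more than 0.5 above it and in 2 more than 0.5 below it, and 14 lists had no gene at 2-fold or more. A gene under 1 FPKM in 1 line was compared only if it reached 1 FPKM in the other, which fixed its direction. The counts and medians of lists with low values partly follow from this rule. In bulk RNA, fewer cells of a type and less RNA per cell cannot be told apart, and this holds for every list that follows.

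**Figure D2:**
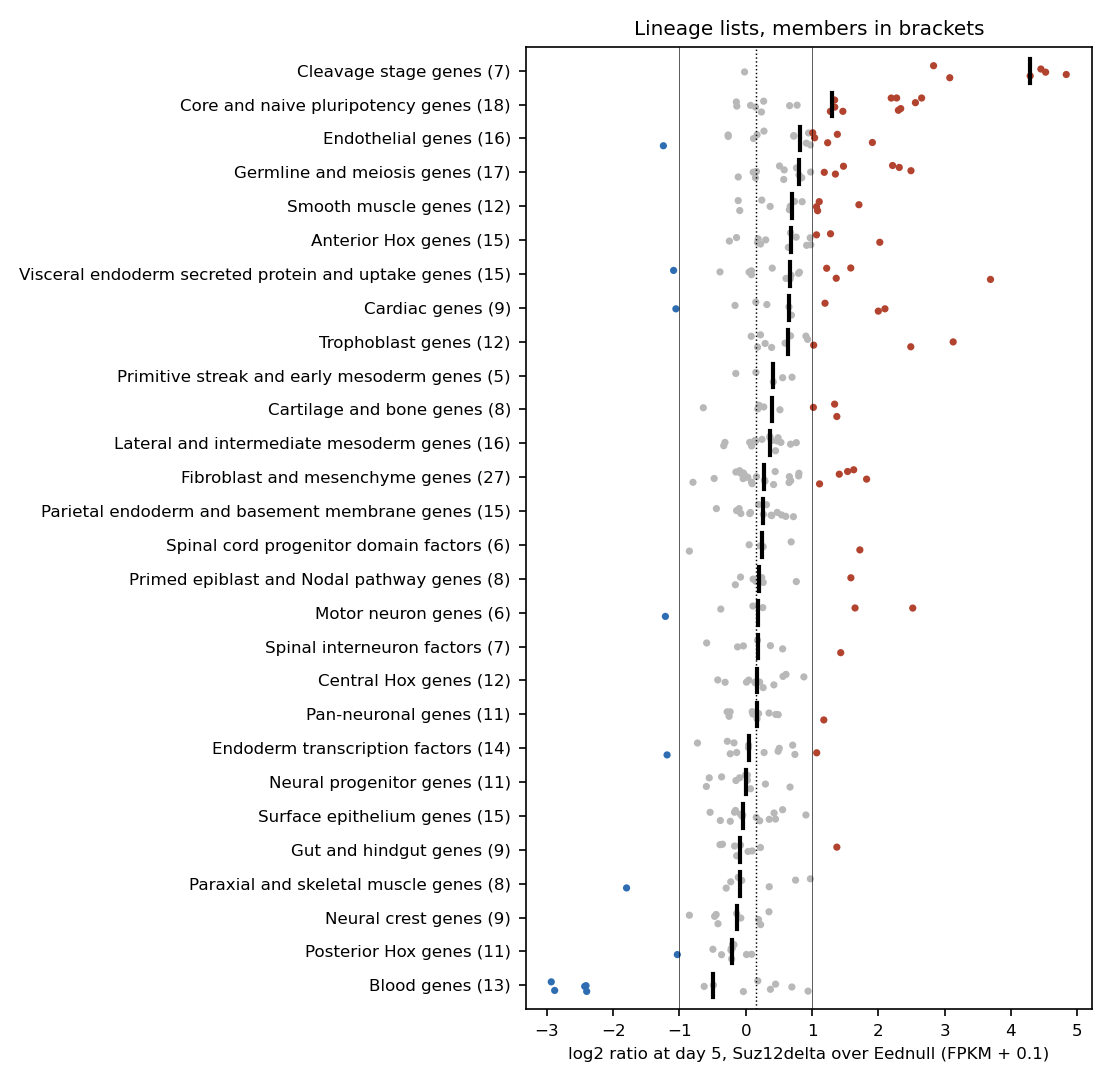
Log2 ratio at day 5, Suz12delta over Eednull, of each gene compared in the lineage and Hox lists with 5 or more such genes (number in brackets). Points are genes, red at least 2-fold higher in Suz12delta and blue in Eednull, black bars are list medians, the dotted line is the median of 0.15 over all genes, and only blood genes and a few others lie to the left of the 2-fold line.

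Pluripotency genes were the list with the most members on the Suz12delta side. Of 26 core and naive pluripotency genes in the table, 18 were compared, 10 were at least 2-fold higher in Suz12delta and 0 in Eednull, with a median log2 ratio of 1.31. Pou5f1 (chromosome 17, 35642982 to 35647721 in NCBI build 37), the gene of the core factor OCT4, was at 2.12 FPKM in Suz12delta and 0.340 FPKM in Eednull (log2 ratio 2.34). It was at 0.302 FPKM in E14 and 1.80 FPKM in Suz12GT, so the Eednull value was close to wild type and the Suz12delta value close to Suz12GT. Tdgf1, the Nodal co-receptor CRIPTO, was at 2.94 FPKM in Suz12delta and 0.563 FPKM in Eednull. Dppa5a, an RNA-binding protein of ESCs, was at 3.85 and 0.715 FPKM. The ESC chromatin gene Dppa4 was at 2.24 and 0.373 FPKM, and its partner Dppa2 at 1.25 and 0.114 FPKM. Pou5f1, Tdgf1, Dppa5a, Dppa4 and Dppa2 passed the limit of 1 FPKM through Suz12delta alone, so the count and median of this list partly follow from that limit. Lin28a, which blocks let-7 processing, was at 12.1 and 4.72 FPKM, neither above the E14 value of 16.6 FPKM.

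These day 5 values were small remnants of the ESC values in both lines. Pou5f1 was at 3.66% of its ESC value in Suz12delta and at 0.227% in Eednull. For Tdgf1 the remaining shares were 2.39% and 0.231%, and for Dppa5a 2.83% and 0.271%. In the ESC libraries the difference had the opposite sign, with a median log2 ratio of -1.23 over the same 18 genes, of which 11 were at least 2-fold higher in Eednull and 1 in Suz12delta. Proliferation genes also had lower values in Suz12delta ESCs (median -1.01 over 15 genes), and fibroblast genes higher ones (median 1.22 over 27 genes). Their part in the ESC difference was not tested. Nanog, Dppa3, Fgf4, Prdm14 and Tcl1 were listed at 0 in Eednull at day 5 and between 0.0334 and 0.940 FPKM in Suz12delta, all under the limit of 1 FPKM. Other genes of the list were close, with Klf5 at 7.49 and 6.76 FPKM, Klf4 at 2.92 and 3.21 FPKM and Sall4 at 10.2 and 9.67 FPKM. The group rests on low values, since only 2 of its genes were at least 2-fold higher in Suz12delta among those at 5 FPKM or more, Lin28a and Spp1 (78.3 and 30.8 FPKM), which is also a bone matrix gene.

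Etv4 and Etv5, ETS factors induced by FGF signaling, were higher in Suz12delta. Etv4 was at 13.6 FPKM in Suz12delta and 3.13 FPKM in Eednull, against 0.340 FPKM in E14, and Etv5 at 8.65 and 4.02 FPKM. In the FGF pathway list 2 of 13 genes were at least 2-fold higher in Suz12delta and 1 in Eednull, with a median of 0.58. The receptor Fgfr3 was the 1 higher in Eednull (6.35 FPKM in Suz12delta and 14.1 FPKM), and it was at 33.8 FPKM in E14. Primed epiblast genes had a median of 0.20 over 8 genes, with only Lefty1, a secreted Nodal inhibitor, at 2-fold (1.14 and 0.314 FPKM).

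Cleavage stage genes, which mark a rare state of cultured ESCs that resembles early embryos, gave the highest median of any list. Of 12 genes listed 7 were compared and 5 were not. Of the 7 compared 6 were at least 2-fold higher in Suz12delta, with a median log2 ratio of 4.29. The 6 Zscan4 genes on chromosome 7, zinc finger genes of that state, summed to 26.1 FPKM in Suz12delta and 0.754 FPKM in Eednull, with ratios between 4.12 and 4.53. In ESCs the same 6 genes summed to 34.2 and 25.2 FPKM, so their sum was close in the lines before differentiation. Gm4340 followed the same order with 9.24 and 0.227 FPKM at day 5. The Zscan4 genes (0.0886 to 0.154 FPKM in Eednull) and Gm4340 passed the limit of 1 FPKM through Suz12delta alone. The count and median of this list therefore partly follow from that limit. Eif1a, a translation factor of the same list, was at 34.1 and 34.5 FPKM. The Zscan4 genes are copies of 1 family, and their single values are uncertain where reads were shared. Their transcripts were not compared here. With a pseudocount of 1 the median of the list was 2.20, and 6 genes were again at 2-fold.

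Germline genes had a median log2 ratio of 0.80 over 17 genes, 6 at least 2-fold higher in Suz12delta and 0 in Eednull. Stra8, the retinoic acid-induced gate to meiosis, was at 56.8 FPKM in Suz12delta and 20.4 FPKM in Eednull, against 2.17 FPKM in E14 and 18.9 FPKM in Suz12GT. Dazl, a germ cell RNA-binding protein, was at 5.72 and 0.934 FPKM, and Piwil2, of the piRNA pathway, at 2.46 and 0.452 FPKM. Smc1b, a meiotic cohesin subunit, was at 3.48 and 1.3 FPKM. Not all of the list differed, since Rec8, another meiotic cohesin subunit, was at 63.1 and 58.4 FPKM, Ddx4 at 3.40 and 3.03 FPKM and Nanos3 at 2.80 and 3.03 FPKM.

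The largest ratios of all belonged to the Xlr genes, an X-linked family related to a meiotic chromosome protein. Of the 15 Xlr genes listed, 13 were compared, and each was at least 2-fold higher in Suz12delta, with log2 ratios from 4.92 to 7.57. All 13 passed the limit of 1 FPKM through Suz12delta alone (4.89 to 24.5 FPKM, against 0.0109 to 0.559 FPKM in Eednull). Their common direction is therefore set by the rule of entry, and the size of the ratios is the result. Xlr3a (chromosome X, 70331632 to 70342434 in NCBI build 37) was at 24.5 FPKM in Suz12delta and 0.387 FPKM in Eednull, and Xlr5a at 21.0 and 0.0111 FPKM. Summed over the 13 genes, Suz12delta held 191 FPKM and Eednull 1.70 FPKM at day 5, while E14 held 0.636 FPKM and Suz12GT 2.45 FPKM. The difference was there before differentiation, with sums of 82.0 FPKM in Suz12delta ESCs and 1.38 FPKM in Eednull ESCs. Nxf3, an X-linked RNA export gene, was at 10.3 and 0.389 FPKM. Of the 15 largest ratios among genes at 10 FPKM or more, 10 were Xlr genes.

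The promoters of 2 pairs of Xlr copies are shown because the copies stood on the same side. The 250 bases before the start are given from RefSeq (GRCm38.p6), 5′ to 3′ on the gene's strand, with CG dinucleotides, the sites of DNA methylation, in capitals.
Xlr3b: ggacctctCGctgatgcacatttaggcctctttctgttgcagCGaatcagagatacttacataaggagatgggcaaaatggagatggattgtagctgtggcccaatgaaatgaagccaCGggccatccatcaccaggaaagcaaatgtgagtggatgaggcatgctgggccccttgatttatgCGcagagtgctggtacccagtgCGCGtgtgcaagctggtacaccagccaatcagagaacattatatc
Xlr3c: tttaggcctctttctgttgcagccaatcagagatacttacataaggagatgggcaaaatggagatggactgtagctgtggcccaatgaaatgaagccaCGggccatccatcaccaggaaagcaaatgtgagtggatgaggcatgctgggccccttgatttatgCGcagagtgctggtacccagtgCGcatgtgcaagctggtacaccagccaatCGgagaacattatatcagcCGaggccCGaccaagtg
Xlr4b: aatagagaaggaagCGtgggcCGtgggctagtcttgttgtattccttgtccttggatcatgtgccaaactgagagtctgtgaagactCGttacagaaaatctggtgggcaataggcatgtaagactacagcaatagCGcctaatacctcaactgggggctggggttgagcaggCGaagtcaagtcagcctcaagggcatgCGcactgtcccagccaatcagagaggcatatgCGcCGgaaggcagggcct
Xlr4c: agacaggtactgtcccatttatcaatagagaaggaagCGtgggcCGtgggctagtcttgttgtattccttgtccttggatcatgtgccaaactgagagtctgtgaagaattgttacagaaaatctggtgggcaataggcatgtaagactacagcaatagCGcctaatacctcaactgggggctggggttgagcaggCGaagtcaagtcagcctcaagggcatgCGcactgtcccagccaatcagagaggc
These upstream bases are not part of the transcripts, whose sequences were not compared here, and single values of such copies are uncertain where reads were shared. Xlr3b and Xlr3c share a run of 119 bases and Xlr4b and Xlr4c one of 139 bases, while the longest run shared by Xlr3b and Xlr4b was 15 bases. The windows held 6, 6, 8 and 5 CG dinucleotides. Over 9 Xlr promoters the count ran from 1 to 14, and 5 were at or under the median of 6 over 32851 promoters of this length, so low CG content was not shared by the family. These positions are chrX:73191929-73192178 (plus strand), chrX:73265391-73265640 (minus), chrX:73214083-73214332 (plus) and chrX:73243131-73243380 (minus). A second X-linked cluster lay on the same side. Of 31 reproductive homeobox (Rhox) genes listed, only 5 were compared, so the cluster as a whole is not described. All 5 were at least 2-fold higher in Suz12delta, summing to 64.8 FPKM against 9.92 FPKM in Eednull and 0.680 FPKM in E14. Their Eednull values ran from 0.0368 to 3.97 FPKM, so not all of them passed the limit of 1 FPKM in both lines. In ESCs the sums were 83.1 and 10.2 FPKM. Rhox9 was at 29.0 FPKM in Suz12delta and 3.22 FPKM in Eednull, and Rhox6 at 22.8 and 3.97 FPKM.

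Blood genes were the list with the most members on the Eednull side, and these were hemoglobin genes. Of 13 blood genes compared 5 were at least 2-fold higher in Eednull and 0 in Suz12delta, with a median log2 ratio of -0.49, and all 5 were globins. Hba-x, the embryonic zeta globin on chromosome 11 (32176400 to 32178116), was at 4.59 FPKM in Suz12delta and 24.8 FPKM in Eednull, a 5.41-fold ratio. Hbb-y, the embryonic epsilon globin on chromosome 7 (111000259 to 111001754), was at 3.31 and 18.3 FPKM, and its neighbor Hbb-bh1 at 1.06 and 6.02 FPKM. The adult alpha globins Hba-a1 (1.74 and 13.5 FPKM) and Hba-a2 (1.27 and 10.4 FPKM) share nearly all of their sequence, and their values are not independent. Over 6 globin genes, the sums were 12 FPKM in Suz12delta, 78.4 FPKM in Eednull, 6.86 FPKM in E14 and 1.49 FPKM in Suz12GT. In the ESC libraries the sums were 1.07 and 1.73 FPKM. Among the 4 day 5 libraries Eednull had the highest globin sum, and Suz12delta lay nearer to E14.

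The early blood regulators Gata2, Tal1 and Lmo2 were close in the 2 lines, while Etv2, of the endothelial list below, was higher in Suz12delta. Gata2, a factor of early blood and of spinal interneurons, was at 11.7 FPKM in Suz12delta and 12 FPKM in Eednull, against 0.131 FPKM in E14. Tal1, which partners it, was at 2.12 and 1.61 FPKM and Lmo2 at 3.21 and 2.82 FPKM. The factors that drive late red cell genes were low in both, Gata1 at 0.155 and 0.175 FPKM and Klf1 at 0.175 and 0.214 FPKM. Slc4a1, the band 3 anion exchanger of red cells, was at 0.144 and 0.526 FPKM, below the limit of 1 FPKM. Ptprc, the pan-leukocyte CD45, was listed at 0 in both.

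The promoters of the globins are shown because embryonic and adult members, on separate chromosomes, stood on the same side. CACCC, the box bound by KLF1 in globin genes, is in capitals where it occurs on the printed strand, in the 250 bases before the start (RefSeq, GRCm38.p6).
Hba-x: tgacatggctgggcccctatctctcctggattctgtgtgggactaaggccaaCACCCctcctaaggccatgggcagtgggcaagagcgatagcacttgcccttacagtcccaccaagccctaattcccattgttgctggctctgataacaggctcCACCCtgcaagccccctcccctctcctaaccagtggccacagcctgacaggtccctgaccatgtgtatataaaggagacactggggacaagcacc
Hbb-y: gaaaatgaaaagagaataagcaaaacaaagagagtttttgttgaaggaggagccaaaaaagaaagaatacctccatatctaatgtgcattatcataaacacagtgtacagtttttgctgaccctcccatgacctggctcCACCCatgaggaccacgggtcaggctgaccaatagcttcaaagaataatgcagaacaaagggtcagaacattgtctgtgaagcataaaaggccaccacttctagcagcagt
Hba-a1: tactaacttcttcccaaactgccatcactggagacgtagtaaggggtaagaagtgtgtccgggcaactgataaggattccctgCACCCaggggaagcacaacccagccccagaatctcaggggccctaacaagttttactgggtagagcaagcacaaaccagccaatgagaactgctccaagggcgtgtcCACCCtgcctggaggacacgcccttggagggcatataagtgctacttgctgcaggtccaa
These are chr11:32276350-32276599 (plus strand), chr7:103853208-103853457 (minus) and chr11:32283422-32283671 (plus). CACCC was found in all 4 globin promoters searched, Hba-a2 included, on either strand. It is a short motif that 52% of the 32851 promoters also hold. Of the common forms of the GATA site, TGATAA was in all 4 and in 7.94% of all promoters, and AGATAA in none of the 4 and in 9.99% of all promoters, on either strand. CCAAT was in 3 of the 4 and in 33.8% of all promoters. Hba-a1 and Hba-a2 share a run of 247 of the 250 bases.

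Endothelial genes lay on the opposite side from the globins. Of 16 compared 5 were at least 2-fold higher in Suz12delta and 1 in Eednull, with a median log2 ratio of 0.82. Etv2, the ETS factor that starts the endothelial and blood program, was at 3.27 FPKM in Suz12delta and 0.797 FPKM in Eednull. Eng, a TGF-beta co-receptor, was at 4.07 and 1.5 FPKM and Tek, the angiopoietin receptor, at 1.14 and 0.424 FPKM. Kdr, the VEGF receptor of the earliest progenitors, was at 8.45 and 7.49 FPKM. Ramp2, the receptor modifier for adrenomedullin, was the 1 gene higher in Eednull (9.08 and 21.6 FPKM). Both lines were above E14, where Kdr was at 0.235 FPKM and Etv2 at 0.0448 FPKM. The group is low in level, and among the genes at 5 FPKM or more 0 were at least 2-fold higher in Suz12delta.

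Genes of contractile and matrix-producing mesenchyme were also higher in Suz12delta in part. Among 12 smooth muscle genes 4 were at least 2-fold higher there and 0 in Eednull, with a median of 0.70. Under the scaling to the same 75th percentile 1 was. Tagln, an actin-binding protein, was at 38.1 FPKM in Suz12delta and 17.9 FPKM in Eednull, and Cnn1 (calponin) at 7.97 and 2.37 FPKM. Actg2, a smooth muscle actin, was at 4.45 and 2.07 FPKM and Lmod1, an actin nucleator, at 1.63 and 0.701 FPKM. Myl9, a myosin light chain, differed by less than 2-fold (83.1 and 46.0 FPKM). Among 27 fibroblast and mesenchyme genes 5 were at least 2-fold higher in Suz12delta and 0 in Eednull, with a median of 0.28. The 2 chains of type I collagen were among the 5, Col1a1 at 25.4 and 8.68 FPKM and Col1a2 at 26.8 and 8.60 FPKM. Lox, which crosslinks collagen, was at 6.54 and 2.4 FPKM. Transcription factors and receptors of mesenchyme were close, with Pdgfra at 11.7 and 11 FPKM, Twist1 at 4.05 and 3.29 FPKM and Prrx1 at 3.69 and 4.10 FPKM.

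Collagen and fibroblast genes are also markers of the feeder fibroblasts. The 28 fibroblast genes summed to 2409 FPKM in Suz12delta ESCs and 922 FPKM in Eednull ESCs, where 16 of 27 were at least 2-fold higher in Suz12delta, and to 499 and 429 FPKM at day 5. None was listed at 0 in either day 5 library. E14 day 5 cells summed to 504 FPKM, of which Vim, also a neural progenitor gene, gave 399 FPKM. The part of carried-over feeder RNA in the day 5 difference was not tested. Of 8 cartilage and bone genes, 3 were at least 2-fold higher in Suz12delta, Spp1, Hapln1 (11.6 and 5.67 FPKM) and Acan (1.15 and 0.384 FPKM), and 0 in Eednull.

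Cardiac genes were few and low. Of 9 compared 3 were at least 2-fold higher in Suz12delta, the sarcomere genes Tnni1 (5.53 and 1.21 FPKM), Actc1 (3.85 and 0.888 FPKM) and Myl7 (3.22 and 1.35 FPKM), while Myl3 was higher in Eednull (2.28 and 4.85 FPKM). The regulators did not follow them, with Nkx2-5 at 1.42 and 1.6 FPKM and Tbx20 at 1.46 and 1.15 FPKM. In the paraxial and skeletal muscle list 0 of 8 genes were at least 2-fold higher in Suz12delta and 1 in Eednull, Eya2 (2.33 and 8.34 FPKM). Lateral and intermediate mesoderm factors were high in both lines and close between them, with 0 of 16 at 2-fold in either direction and a median of 0.36. All 16 were at least 2-fold above E14 in both lines. Wt1, a factor of kidney and mesothelium, was at 28.8 FPKM in Suz12delta and 36.3 FPKM in Eednull, against 0.327 FPKM in E14, and Osr1 at 15.2 and 11.8 FPKM, against 0.127 FPKM.

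**Figure D3:**
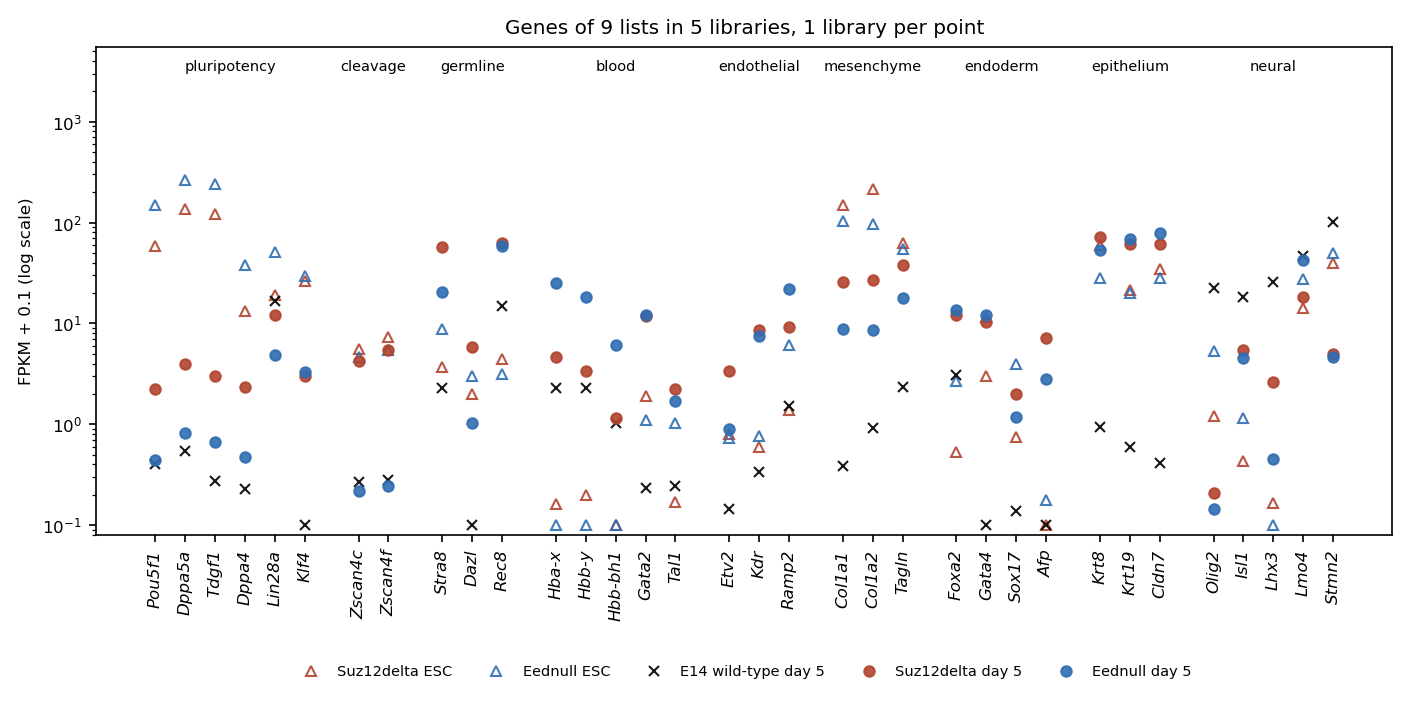
FPKM + 0.1 on a log scale of selected genes of 9 lists in 5 libraries, with 1 library per point: open triangles for ESCs, filled circles for day 5 mutant cells and crosses for E14 day 5, points on the lowest tick being listed at 0. Suz12delta (red) lies above Eednull (blue) at day 5 for most pluripotency, cleavage and germline genes and below it for the 3 embryonic globins, while the epithelial circles nearly coincide.

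The endoderm lists differed in their medians, while most genes in each were under 2-fold. Endoderm transcription factors were close, with a median of 0.04 over 14 genes and 1 at 2-fold in each direction. Foxa2 was at 12 FPKM in Suz12delta and 13.5 FPKM in Eednull and Gata4 at 10.3 and 12.1 FPKM. The exceptions were Sox7 (1.24 and 0.536 FPKM) and Nr5a2 (1.32 and 3.12 FPKM). Secreted and uptake genes of visceral endoderm, the yolk sac layer that makes serum proteins, had a median of 0.67 over 15 genes, with 4 at least 2-fold higher in Suz12delta and 1 in Eednull. Afp, the fetal serum protein, was at 7.15 and 2.72 FPKM, and Apob, Apoa4 and Apoc2, which are lipoprotein components, were at 2.18 and 0.878 FPKM, 1.26 and 0.353 FPKM and 2.12 and 0.0718 FPKM. Dab2, an endocytic adaptor, was the 1 higher in Eednull (9.43 and 20.2 FPKM). The other 10 of the 15 were under 2-fold, and the 21 genes of the list summed to 125 FPKM in Suz12delta and 112 FPKM in Eednull. Basement membrane genes of parietal endoderm were close, with 0 of 15 at 2-fold, Sparc at 173 and 144 FPKM and Lamb1 at 50.5 and 54.1 FPKM.

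Surface epithelium genes were among the closest of all lists. They had a median of -0.05 over 15 genes and 0 at 2-fold in either direction, while all 15 were at least 2-fold above E14 in both lines. Krt8, a keratin of simple epithelia, was at 71.5 FPKM in Suz12delta and 53.1 FPKM in Eednull, against 0.845 FPKM in E14. The tight junction gene Cldn7 was at 60.6 and 79.1 FPKM, against 0.311 FPKM. The gut list had a median of -0.08 over 9 genes, with Vil1, an actin bundler of the brush border, the 1 gene at 2-fold (1.57 and 0.545 FPKM), and Cdx2, the hindgut and trophoblast factor, at 6.77 and 5.79 FPKM. Of 12 trophoblast genes 3 were at least 2-fold higher in Suz12delta and 0 in Eednull, namely Rhox6, Rhox9 and Pparg (6.47 and 3.13 FPKM), and all 3 lie in the chromosomal stretches described below. The trophoblast list had a median of 0.64, and 11 of its 12 genes lay above the median over all genes. In the ESC libraries 6 of the 12 were at least 2-fold higher in Suz12delta and 0 in Eednull. The regulators Elf5 (3.21 and 3.03 FPKM) and Gata3 (17.8 and 15.7 FPKM) were close at day 5.

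Genes of neural progenitors, motor neurons and neurons were mostly below E14 in both lines, and few were at 2-fold between them. Neural progenitor genes had a median of 0.00 over 11 genes and 0 at 2-fold. Pax6 was at 7.24 FPKM in Suz12delta and 9.35 FPKM in Eednull, against 21.9 FPKM in E14, and Sox2 at 3.70 and 5.63 FPKM, against 20.7 FPKM. The motor neuron factors Isl1 (5.32 and 4.43 FPKM, 18.1 FPKM in E14) and Mnx1 (2.63 and 2.44 FPKM, 16.7 FPKM in E14) were close as well. Of 6 motor neuron genes compared 2 were at least 2-fold higher in Suz12delta and 1 in Eednull. Lhx3, their partner, was at 2.52 FPKM in Suz12delta and 0.356 FPKM in Eednull, and the neuronal intermediate filament Prph at 1.10 and 0.282 FPKM. Lmo4 was higher in Eednull (18.2 and 42.3 FPKM), but it lies in the stretch of chromosome 3 described below. All 11 pan-neuronal genes compared were at least 2-fold below E14 in both lines, and Syp, in a stretch of chromosome X, was the 1 at 2-fold between them. Of 6 spinal progenitor domain factors, only Msx1 was at 2-fold (4.56 and 1.31 FPKM). In each line these 6 were split, with 3 at least 2-fold above and 3 below E14. Of 3 proneural factors and Notch ligands compared, 0 were at least 2-fold above and 2 below E14 in each line. Between the lines 0 of them were at 2-fold. The remaining neural lists lay mostly above E14. Of 7 spinal interneuron factors 5 were at least 2-fold above and 0 below E14 in each line, with a median of 0.18 between the lines and 1 at 2-fold, Pou4f1 (2.98 FPKM in Suz12delta and 1.04 FPKM in Eednull). These 7 include Gata2, Gata3 and Tal1, which are also genes of the blood or trophoblast lists. The other 14 of the 21 interneuron factors were not compared, so the list does not show an interneuron identity. All 3 forebrain and midbrain factors compared were at least 2-fold above E14 in both lines and under 2-fold between them, with a median of 0.49. Of 9 neural crest genes 5 were at least 2-fold above and 2 below E14 in each line, with a median of -0.14 and 0 at 2-fold.

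Hox genes, which code for position along the body axis, gave medians that ran from 0.68 for anterior (groups 1 to 5) over 0.18 for central to -0.21 for posterior genes. Of 15 anterior genes 3 were at least 2-fold higher in Suz12delta, Hoxb1 (1.28 and 0.239 FPKM), Hoxa4 (7.79 and 3.15 FPKM) and Hoxa5 (14.8 and 6.98 FPKM), and 0 in Eednull. Of the 15, 10 were at least 2-fold below E14 in Suz12delta and 2 above it, and 13 were below and 0 above in Eednull. Hoxa5 was at 27.1 FPKM in E14. With a pseudocount of 1, 1 of the 15 was at least 2-fold higher in Suz12delta. Of 11 posterior genes 1 was at 2-fold, Hoxc12 in Eednull (0.462 and 1.05 FPKM), and 0 lay above the median over all genes. Hoxa10 was at 10.5 FPKM in Suz12delta and 12.2 FPKM in Eednull and listed at 0 in E14.

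Targets of the 2 signals added to the medium had close values in both lines. Retinoic acid response genes had a median of 0.03 over 17 genes and 0 at 2-fold. Cyp26b1, which degrades retinoic acid, was at 76.3 FPKM in Suz12delta and 56.2 FPKM in Eednull, and Stra6, the receptor for the retinol carrier, at 83.7 and 75.5 FPKM. Hedgehog targets were as close, with Ptch1 at 72.8 and 64.9 FPKM and Gli1 at 15.7 and 11 FPKM, and Gas1, a co-receptor, was the 1 gene of 13 at 2-fold (13.9 and 5.54 FPKM). Wnt pathway genes had 0 of 19 at 2-fold, with a median of 0.35 and 14 above the median over all genes. Of 20 BMP and TGF-beta genes 2 were at least 2-fold higher in Suz12delta, the activin subunit Inhba (1.3 and 0.419 FPKM) and the BMP antagonist Grem1 (1.6 and 0.620 FPKM). Of 17 stress and immediate early genes 5 were at least 2-fold higher in Suz12delta and 0 in Eednull, with a median of 0.48. They were Egr1 (12.6 and 3.42 FPKM), Fos (4.59 and 1.80 FPKM), Junb, Atf3 and Trib3. The 15 proliferation genes and the 15 housekeeping genes had 0 at 2-fold, with medians of 0.16 and 0.10.

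Imprinted genes, which are expressed from 1 parental copy, held large differences at high level. On chromosome 12, Meg3 (110779211 to 110809936), a maternally expressed long RNA, was at 33.5 FPKM in Suz12delta and 269 FPKM in Eednull, 8.03-fold apart. Rian, from the same maternal copy, was at 15.5 and 122 FPKM. The paternally expressed neighbor Dlk1 (110691033 to 110701546), a Notch-like ligand, went the other way with 584 and 233 FPKM. E14 day 5 cells had 125 FPKM of Meg3 and 41.1 FPKM of Dlk1, and Suz12GT cells 0.890 and 51.9 FPKM, so the 4 day 5 libraries spread widely at this locus. In ESCs Meg3 was at 97.5 FPKM in Suz12delta and 90.6 FPKM in Eednull. Mirg, also from the maternal copy, was at 6.24 and 12 FPKM. Other imprinted genes were high in both lines and close, with H19 at 796 and 793 FPKM and Mest at 412 and 338 FPKM, against 1.92 and 6.74 FPKM in E14. Of 25 imprinted genes 3 were at least 2-fold higher in Suz12delta (Dlk1, Igf2r at 46.2 and 11.7 FPKM, and Magel2 at 3.28 and 1.06 FPKM) and 2 in Eednull.

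Among PRC2 subunits and accessory factors 1 of 12 was at 2-fold, Phf19, which binds trimethylated lysine 36 of histone H3 (2.76 and 1.2 FPKM). The methyltransferase gene Ezh2 was at 74.3 FPKM in Suz12delta and 76.0 FPKM in Eednull. Cdkn2a, a cell cycle inhibitor locus silenced by PRC2 in many cells, was at 60.9 and 66.6 FPKM, against 3.11 FPKM in E14.

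Y-linked genes were lower in Suz12delta. Eif2s3y, a translation factor gene, was at 0.714 FPKM in Suz12delta and 25.4 FPKM in Eednull, Ddx3y at 0.407 and 6.15 FPKM and Uty at 0.140 and 6.2 FPKM. In the ESC libraries Eif2s3y was at 12.3 and 35 FPKM, so that the day 5 value was 5.81% of the ESC value in Suz12delta and 72.6% in Eednull. The same ESC libraries held 2409 and 922 FPKM of fibroblast genes, and the part of feeder RNA in the ESC values of Eif2s3y was not tested. Xist, the RNA of the inactive X chromosome, was low in both (1.04 and 0.414 FPKM). Mitochondrial genes were higher in Suz12delta, with a median of 0.69 over 35 genes and 11 at 2-fold, and 0 higher in Eednull. These 35 were not split by kind of RNA, and FPKM values of any short RNAs among them are uncertain. Further genes with the smallest ratios were Gm14571, an X-linked pseudogene at 0.113 FPKM in Suz12delta and 16.2 FPKM in Eednull, Cldn11, a tight junction gene (3.26 and 11.2 FPKM), and Mreg, a melanosome transport gene (4.89 and 13.1 FPKM). Gm14571 lies in the stretch of chromosome X described below, where it is 1 of the 2 genes higher in Eednull.

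Part of the differences followed position on the chromosome. Windows of 10 Mb with 20 or more genes were compared with the median of 0.15, and 12 of 237 windows had a median at least 0.3 away from it. They formed 3 stretches, while the others ran from -0.07 to 0.40. The first, on chromosome 3 from 140 Mb to the last gene near 160 Mb, held 59 genes with a median of -0.72. Of these 19 (32.2%) were at least 2-fold higher in Eednull, 0 in Suz12delta, and 0 lay above the median of all genes. The rest of chromosome 3 had a median of 0.13. The second, on chromosome 6 from 90 to 150 Mb, held 330 genes with a median of 0.61, 47 (14.2%) at least 2-fold higher in Suz12delta and 3 in Eednull, against 0.14 for the rest of the chromosome. The third, on chromosome X up to 40 Mb, held 179 genes with a median of 0.87, 72 (40.2%) at least 2-fold higher in Suz12delta and 2 in Eednull, against 0.10 for the rest.

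Against E14 the 3 stretches were displaced in Suz12delta cells more than in Eednull cells. On chromosome 3 the median log2 ratio to E14 at day 5 was -0.42 in Suz12delta and 0.25 in Eednull, on chromosome 6 it was 0.72 and 0.13, and on chromosome X it was 0.74 and 0.02. The chromosome 3 and X stretches also stood apart in the ESC libraries, with medians of -0.80 (rest of the chromosome -0.20) and 0.37 (rest 0.06). For chromosome 6 the ESC median was 0.02, against -0.19 for the rest. Neighboring genes of unrelated function stood on the same side, and the following were chosen as examples after their values were seen. On chromosome 3 the deubiquitinase Usp33 was at 8.05 FPKM in Suz12delta and 16.4 FPKM in Eednull, and Rabggtb, a subunit of the Rab prenyltransferase, at 22.5 and 45.0 FPKM. On chromosome X Suv39h1, a histone H3 lysine 9 methyltransferase, was at 63.0 and 31.0 FPKM, and Hdac6, a tubulin deacetylase, at 62.8 and 30.8 FPKM.

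**Figure D4:**
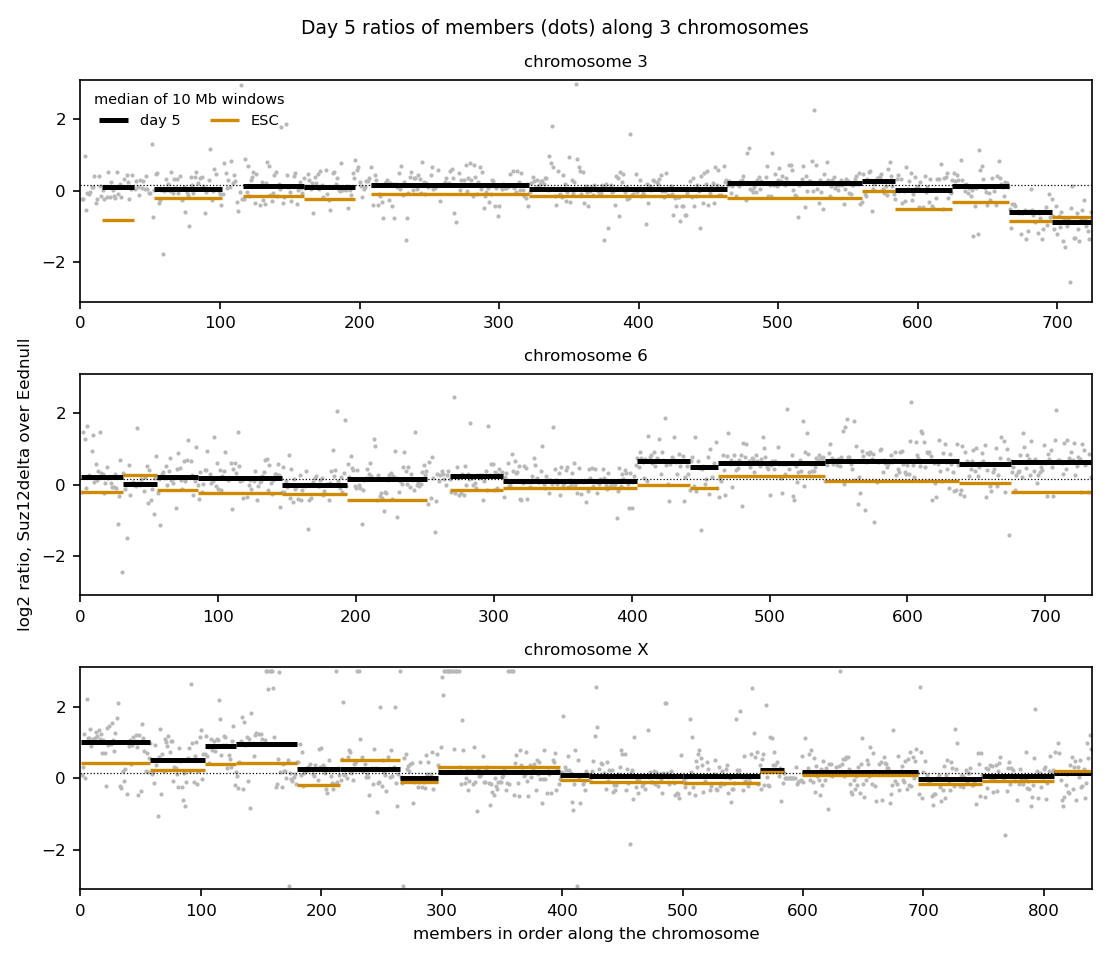
Log2 ratio at day 5, Suz12delta over Eednull, of each gene compared on chromosomes 3, 6 and X in order of position (grey dots, clipped at 3 in each direction), with the medians of 10 Mb windows at day 5 (black) and in ESCs (orange) and the median of 0.15 over all genes (dotted). The last windows of chromosome 3 lie below the dotted line, and the second part of chromosome 6 and the first windows of chromosome X lie above it.

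The 3 stretches held 568 genes (3.62% of those compared) but 119 (16.0%) of the 744 genes higher in Suz12delta and 24 (11.1%) of the 216 higher in Eednull. Without them 625 genes (4.13%) and 192 genes (1.27%) were at 2-fold, and no lineage list changed its median by more than 0.25. The stretches held 6 list genes at 2-fold, which were Pparg and Tuba3a on chromosome 6, Rhox6, Rhox9 and Syp on chromosome X and Lmo4 on chromosome 3. Copy number of these stretches was not tested.

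Finally, the day 5 differences were set beside the same contrast in the ESC libraries, which did not choose the genes. Of the 744 genes higher in Suz12delta at day 5, 223 (30.0%) were at least 2-fold higher in Suz12delta ESCs as well, 97 (13.0%) were higher in Eednull ESCs and 424 differed by less than 2-fold. Over all 15691 genes these shares in ESCs were 9.82% and 14.3%. Of the 216 genes higher in Eednull at day 5, 69 (31.9%) were higher in Eednull ESCs, 38 (17.6%) in Suz12delta ESCs and 109 differed by less. Under 1 FPKM in both ESC libraries were 143 (19.2%) of the 744 and 95 (44.0%) of the 216, where ratios are least certain. Xlr and Rhox genes were among those that already differed in ESCs, the globins and Meg3 among those that did not, and Pou5f1 and Stra8 among those with the opposite sign. The CJ7 label names the Eednull ESC library, by its column prefix, as prepared and sequenced with CJ7, so the ESC contrast may cross a batch. Whether the 2 day 5 libraries share a batch is not stated.

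**Figure D5:**
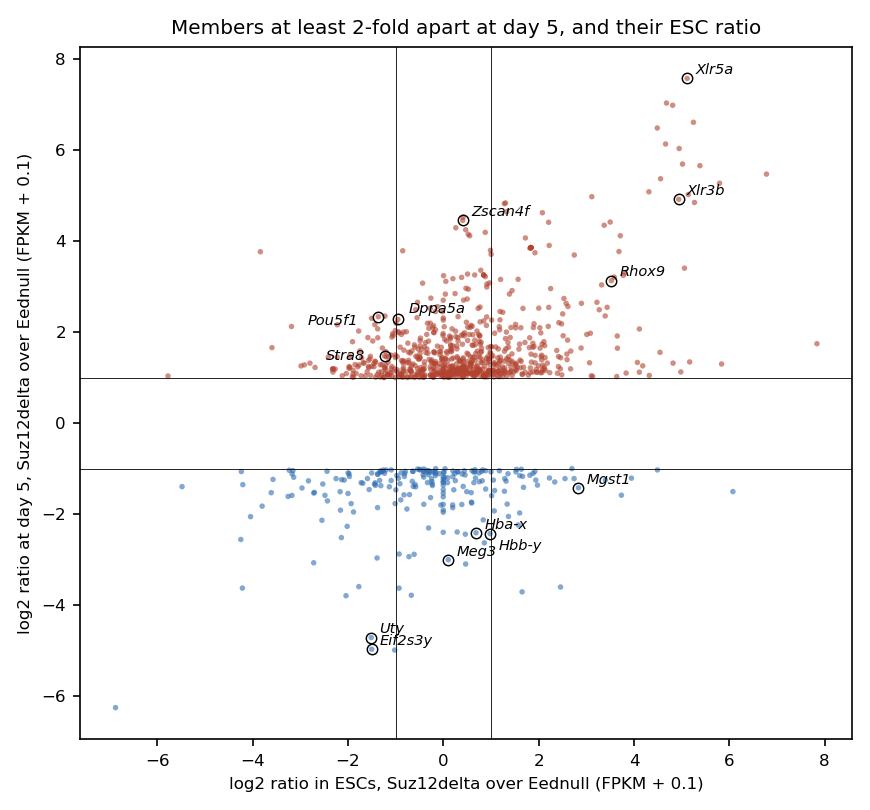
Log2 ratio, Suz12delta over Eednull, in ESCs (x axis) and at day 5 (y axis) for the 744 genes at least 2-fold higher in Suz12delta at day 5 (red) and the 216 higher in Eednull (blue), with lines at 2-fold. Xlr and Rhox9 points lie to the upper right, the labelled globins and Meg3 near the middle of the x axis, and Pou5f1 in the upper left.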

How the data were processed

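The table held RNA-seq values of 8 libraries, 1 per condition, with the Suz12delta and Eednull day 5 libraries compared and the others given for context. The deposited unit was FPKM, which the authors estimated with Cufflinks 1.2.1 and Cuffdiff, with bias and multi-read correction, after aligning reads to NCBI build 37 with TopHat 1.3.2 and Bowtie 0.12.7. An exact 0 may be a failed estimate. From these values log2 ratios were computed with a pseudocount of 0.1, without rescaling, in Python 3.11.15 with NumPy 2.4.6, pandas 2.3.3 and matplotlib 3.10.9, and the scripts were tested on simulated data. Genes named were the 15 largest and 15 smallest ratios among genes at 10 FPKM or more in the higher library, genes of the 44 lists, and Suz12 and Eed. Genes near the limits (Strap, Itpr1, SCARNA17, Unc13d) and the chromosome examples Usp33, Rabggtb, Suv39h1 and Hdac6 were chosen after their values were seen. Members and lists were chosen with earlier results of these data known. The 10 Mb windows and gene families were chosen after the values were seen. Alternatives were a minimum of 5 FPKM, a 4-fold limit, pseudocounts of 1 and 0.01, scaling to the same 75th percentile, genes listed at 0 kept, members also at 1 FPKM in ESCs and, added after seeing the data, leaving out the 3 stretches and protein-coding genes only. Of the list symbols, 13 matched by an older symbol and 9 were not found. Coordinates are from GENCODE vM1 (NCBI build 37), and promoters from RefSeq (GRCm38.p6).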

Additional observations from a re-analysis of the deposited data

Results flagged for a closer look

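Core and naive pluripotency genes differed between the lines in opposite directions before and after differentiation. Over the 18 genes compared, the median log2 ratio of Suz12delta to Eednull was 1.31 at day 5, with 10 genes at least 2-fold higher in Suz12delta and 0 in Eednull. Several of the 10, Pou5f1 among them, passed the limit of 1 FPKM through Suz12delta alone, so the day 5 count and median partly follow from that limit. In the ESC libraries the median over the same genes was -1.23, with 1 and 11 genes. The difference between the 2 time points was not tested, since each rests on 1 library per line.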

How the results depend on the processing

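Each condition had 1 library, so no difference has an error, and 633 of the 960 genes at 2-fold were under 5 FPKM in both libraries. Counts of genes at least 2-fold higher in Suz12delta and in Eednull (744 and 216) became 349 and 78 with a pseudocount of 1, 259 and 68 with a minimum of 5 FPKM, and 157 and 33 at 4-fold. With protein-coding genes only, the count for Eednull was 122. Counts of list genes (75 and 18) became 42, 27 and 23 for Suz12delta with a pseudocount of 1, a minimum of 5 FPKM and a 4-fold limit, and 10 for Eednull at 4-fold. Fewer genes pass by construction in each of these. Of 261 medians of the 44 lists under the alternatives, 246 lay within 0.25 of the value given and 15 moved further, 7 of them with a minimum of 5 FPKM and 6 with a pseudocount of 1. The median of the pluripotency genes was 0.84 with a pseudocount of 1 and 0.21 with a minimum of 5 FPKM, and 1.15 after scaling to the same 75th percentile. With a pseudocount of 1 the medians of cleavage stage, germline and cardiac genes were 2.20, 0.53 and 0.36, and 2 endothelial and 1 anterior Hox gene were at least 2-fold higher in Suz12delta in place of 5 and 3. Medians near 0 changed sign. After scaling to the same 75th percentile the median over all genes was -0.0022, and those of endoderm transcription factors, retinoic acid response genes and housekeeping genes were -0.11, -0.12 and -0.06. With a minimum of 5 FPKM those of endoderm transcription factors, motor neuron genes and spinal interneuron factors were -0.16, -0.48 and -0.04. No paired analysis was possible because each line had 1 library at day 5.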
